A study of Mus musculus with 2 samples.

Results

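Splicing factors, heterogeneous nuclear ribonucleoproteins (hnRNPs) and RNA-binding motif (RBM) proteins were compared between tissue cut from under the dorsal aorta and tissue cut from above it in the mouse embryo. The set was taken by gene symbol: Srsf, Sf3a, Sf3b, U2af, Prpf, Hnrnp, Snrp and Rbm genes, without Snrpn and without pseudogenes. It held 101 of the 24675 features with a symbol, 99 of them protein-coding genes and 2 long noncoding RNAs, Rbm3os and Rbm46os, which carry an Rbm symbol but encode no RBM protein. Ventral tissue (under the aorta) and dorsal tissue (between the roof of the aorta and the notochord) were isolated by laser microdissection from the same C57BL/6 embryos at embryonic day 10.5, with no treatment or genetic change given, and each was measured on 1 Affymetrix Mouse Gene 2.0 ST array. Both arrays are given as biological replicate 4, and the labels do not say how many embryos lie behind them. Later stages named in the series design were not analysed here. With 1 array per tissue there is no replicate error and no test, and every gene is described by the size of its difference alone.

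Splicing removes introns from a primary transcript in a large RNA-protein machine, the spliceosome. Its U1, U2, U4 and U5 particles (snRNPs) carry a ring of Sm proteins and U6 a ring of the related LSm proteins. U1 recognises the start of an intron, and U2AF and the SF3 complexes bring U2 to the branch point near the end of it. PRPF proteins build the U4/U6.U5 tri-snRNP and activate the machine. SR proteins (Srsf genes) mostly favour the use of an exon and hnRNPs often oppose it, and many of both families keep their own level in check through an exon that sends the transcript to decay. RBM proteins share an RNA-recognition motif and little else: some sit in the spliceosome, others act in RNA modification, decay or the nucleolus, and a few are restricted to muscle, germ cells or epithelium. In human blood cancers SF3B1, SRSF2 and U2AF1 are among the splicing genes most often mutated.

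Levels are log2 expression values. Signal over background was judged from 1365 olfactory and vomeronasal receptor genes, which are mainly used in sensory neurons of the nose. Their 95th percentile over both arrays, 3.92, is taken as background, and folds are less certain where the lower level does not reach 5.48, their 99th percentile. Where the lower array lay under 3.92 the fold is a lower bound. In ventral tissue 81 of the 101 genes lay above background and in dorsal tissue 76, with 75 above it on both arrays. For 60.4% of the set at least 1 array exceeded the 99th percentile, against 10.7% of all features. Tissue content was checked with marker genes. Of 10 coelomic epithelium markers 7 were above background in ventral tissue and 0 in dorsal tissue. Among 10 sclerotome and cartilage precursor markers 5 were above it in ventral tissue and 6 in dorsal tissue. Their summed log2 levels, markers at background included, were 39.1 in ventral and 46.7 in dorsal tissue. Of 6 notochord and floor plate markers 2 were above background on the ventral and 4 on the dorsal array. In the same order the counts were 3 and 5 of 8 skeletal muscle markers and 3 and 2 of 10 neural markers. For erythroid cells they were 6 and 5 of 8 and for macrophages 2 and 1 of 8. For gut endoderm they were 1 and 1 of 6 and for liver 1 and 2 of 5. Among 10 endothelial markers 5 were above background on the ventral and 2 on the dorsal array, with summed log2 levels of 41.8 in ventral and 35.5 in dorsal tissue. Among 8 smooth muscle and pericyte markers 5 were above it on the ventral and 2 on the dorsal array, with sums of 36.8 in ventral and 28.6 in dorsal tissue. Among 9 markers of hemogenic endothelium and blood progenitors, 2 were above background on the ventral array (Gfi1b and Mecom) and 1 on the dorsal array (Gfi1b), and the others, Runx1 among them, lay below it on both. The part of these cell types in the differences below was not tested, and fewer cells of a type cannot be told apart from less RNA per cell.

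Of the 101 genes, 91 passed the filter on low values, which asked that the higher array reach 3.10, the median over all features of the mean of both arrays. A gene is called ventral-high where its measured ventral level was at least 2-fold its dorsal level, and dorsal-high where the reverse held. Among these 91, 20 were ventral-high, 5 were dorsal-high and 66 lay within 2-fold. Of all 13982 genes that passed the filter, 9.44% were ventral-high and 4.88% dorsal-high. After quantile normalization of the 2 columns the set had 14 ventral-high and 8 dorsal-high genes, beside 8.39% and 5.79% of all genes under that scaling. Of the 91 genes 72.5% were higher in ventral tissue by any amount, against 41.3% of all genes. The median ventral minus dorsal difference was 0.41 for the 91 genes and -0.12 for all 13982. With 1.5-fold in place of 2-fold, 35 genes of the set were ventral-high and 8 dorsal-high, beside 16.3% and 15.0% of all genes. With 3-fold the counts were 9 and 3, beside 4.48% and 1.63%.

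Large differences were more common among genes with more signal. At a mean of both arrays of at least 7, 17.9% of 772 genes were ventral-high and 9.97% dorsal-high. For the 31 genes of the set at that level the shares were 12.9% and 6.45%. A mark on the higher array also takes in genes that pass it in 1 tissue alone, which favours large differences. Of the 2628 genes with at least 1 array over the 99th percentile of the receptor genes, 30.1% were ventral-high and 12.7% dorsal-high. The 61 genes of the set over the same mark had 16 and 4, or 26.2% and 6.56%, so at this signal neither share exceeded that of all genes. Their median difference was 0.50, against 0.34 for all 2628, and 77.0% of them were higher in ventral tissue, against 61.6%. The interquartile range of their differences ran from 0.09 to 1.02, a width of 0.93 against 1.67 for all genes at this signal. At a mean of both arrays of at least 7 the gap was smaller, with widths of 0.83 for the set and 1.12 for all genes. Ventral and dorsal levels correlated across these 61 genes with Pearson's r of 0.84 and Spearman's rho of 0.80, and across the 2628 genes with 0.60 and 0.51. Over genes that passed the filter the gap was smaller, with 0.91 and 0.89 for the 91 genes and 0.83 and 0.72 for all 13982. All are descriptions across genes of 1 pair of arrays. Longer genes tended to be higher in ventral tissue among the 2628 genes, with a Spearman correlation of 0.20 between gene span and difference, and the value over the 61 genes was 0.26. The part of gene span in the differences was not tested.

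**Figure D1:**
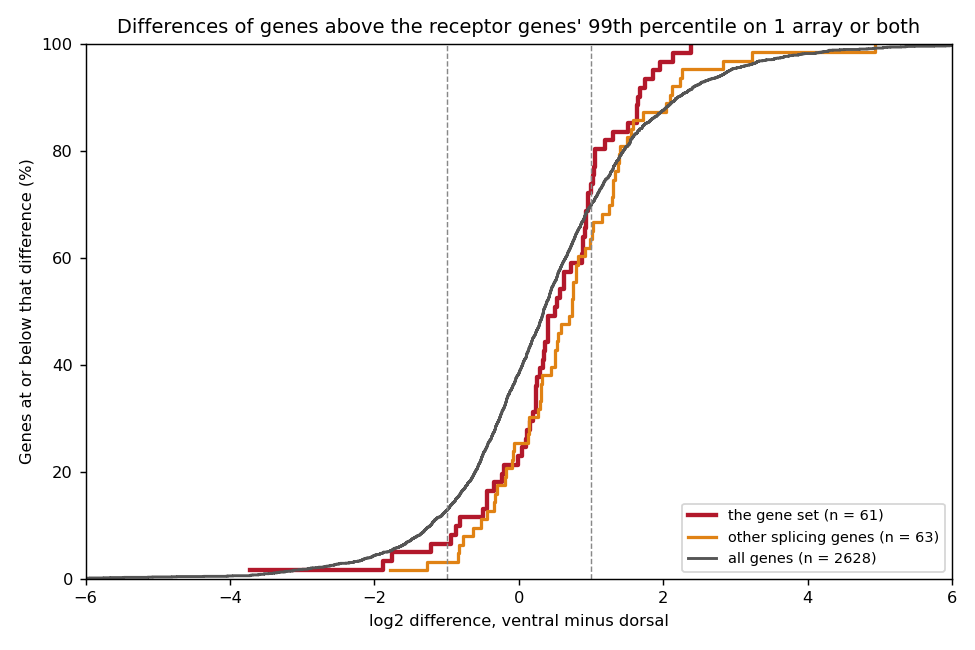
Cumulative share of genes (y axis, %) at or below each ventral minus dorsal log2 difference (x axis) for the 61 genes of the set, 63 other splicing genes and all 2628 genes with at least 1 array over 5.48; dashed lines mark 2-fold. The curve of the set lies right of that of all genes between -1 and 0 and left of it above 1, with its interquartile range between 0.09 and 1.02.

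The families had positive medians without exception, in the measured values and under each scaling tried. The median was 0.32 for 10 Srsf genes, 0.63 for 9 Snrp genes, 0.53 for 9 Sf3 genes, 0.98 for 3 U2af genes, 0.56 for 11 Prpf genes, 0.44 for 18 Hnrnp genes and 0.40 for 31 Rbm genes. All of these counts are of genes that passed the filter. The median of all 13982 genes was -0.12. Over the 99th percentile of the receptor genes the median was also positive for all 2628 genes, at 0.34. There it was 0.32 for Srsf, 0.37 for Snrp and 0.37 for Rbm genes. It was 0.57 for Hnrnp, 0.71 for Sf3, 1.19 for 1 U2af gene and 1.64 for 5 Prpf genes. Over the scalings and floors tried the medians ran from 0.079 to 0.49 for Srsf, 0.35 to 0.81 for Snrp, 0.34 to 0.71 for Sf3, 0.90 to 1.19 for U2af, 0.45 to 1.64 for Prpf, 0.20 to 0.57 for Hnrnp and 0.18 to 0.52 for Rbm genes. The dorsal-high genes came from the Sf3, Hnrnp and Rbm families, with 2, 1 and 2 genes. The other four families, with 33 genes that passed the filter, had none, beside 4.88% of all genes.

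**Figure D2:**
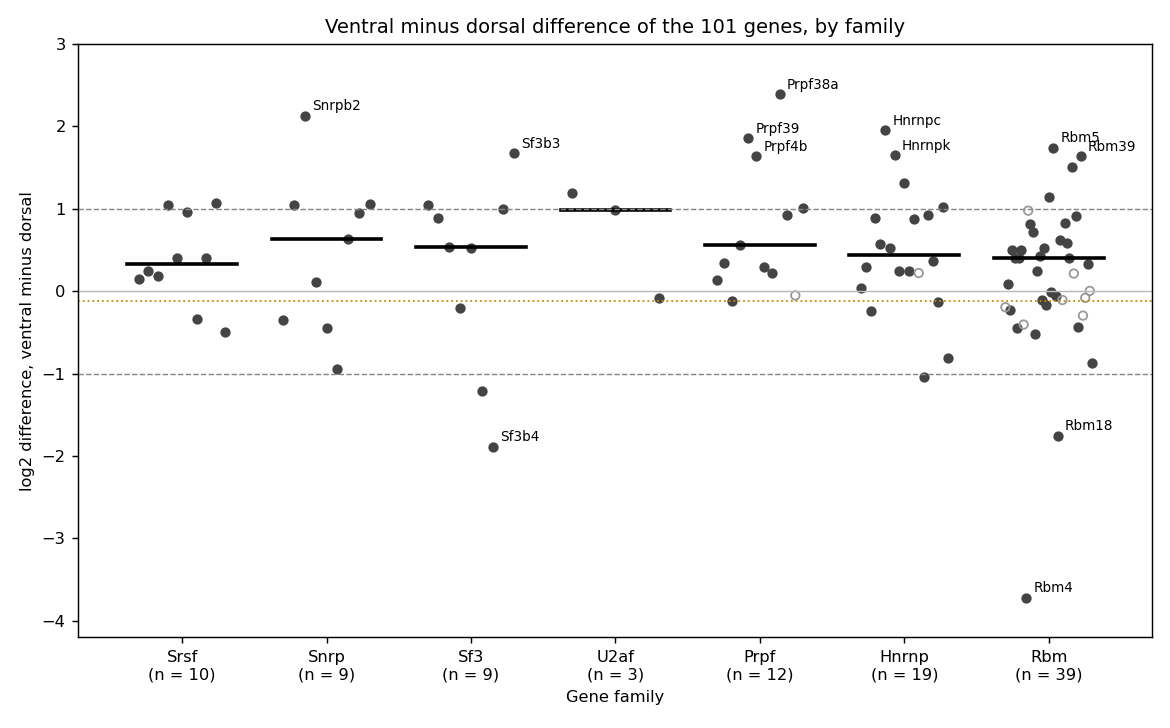
Ventral minus dorsal log2 difference (y axis) of the 101 genes by family (x axis); filled points passed the filter on low values, open points did not, bars are medians over the filled points, dashed lines mark 2-fold and the dotted line the median of all genes, -0.12. Rbm4, at -3.72, lies apart at the lower end and Prpf38a, at 2.39, has the highest value.

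**Figure D3:**
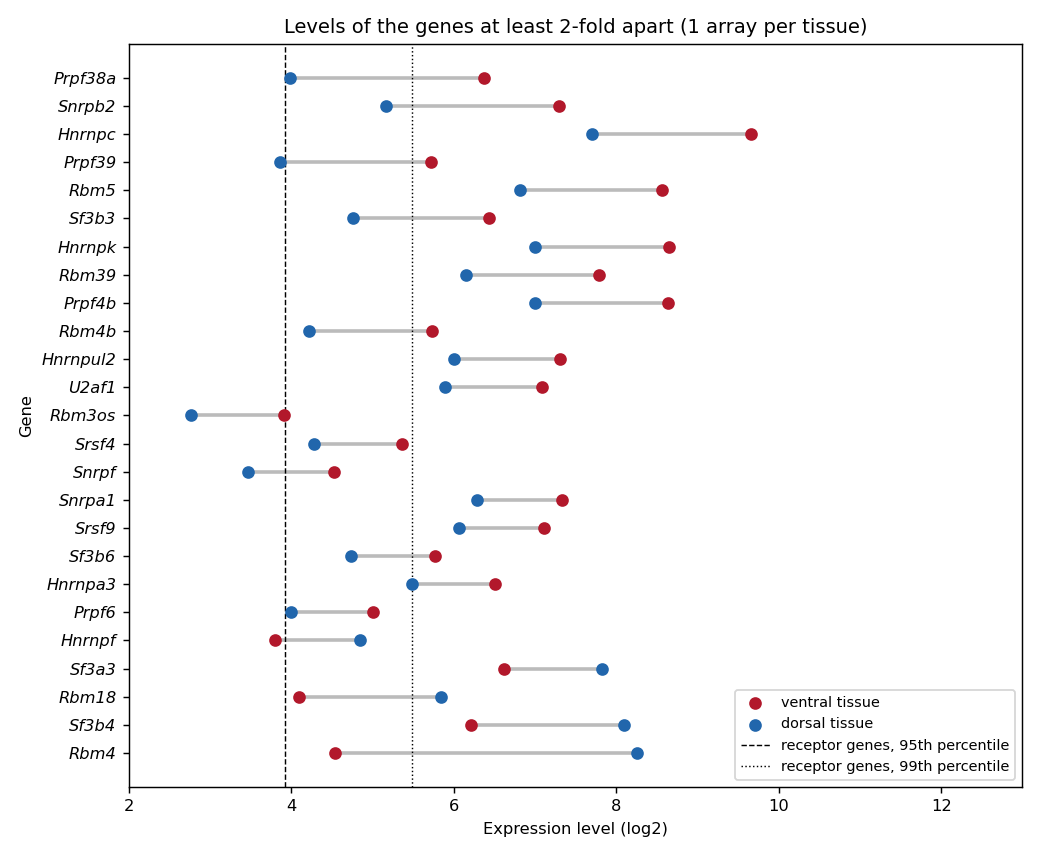
Log2 level (x axis) in ventral and dorsal tissue, 1 array each, of the 25 genes at least 2-fold apart (y axis), ordered by difference. The ventral point lies right of the dorsal one for the upper 20 genes and left of it for Hnrnpf, Sf3a3, Rbm18, Sf3b4 and Rbm4.

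The upstream sequences of 7 of these genes are shown so that a reader can see what lies before the genes at the 2 ends of the range: Prpf38a, Snrpb2 and Hnrnpc, the 3 genes with the greatest ventral excess, then the neighbouring paralogs Rbm4b and Rbm4, which differed in opposite directions, then Rbm18 and Sf3a3, which were higher in dorsal tissue. They were chosen after their values were seen. Each runs 5′ to 3′ over the 250 bases before the gene's first listed start, from RefSeq, build GRCm38.p6. Capitals mark matches on either strand to any of 3 motifs: the ETS motif CCGGAAG, the CCAAT box, spelled by its name, and the GC box GGGCGG. Each motif was searched on its own, whether or not its match overlapped another's. Positions are chr4:108579337-108579586 on the minus strand for Prpf38a, chr2:143062819-143063068 on the plus strand for Snrpb2, chr14:52104022-52104271 on the minus strand for Hnrnpc, chr19:4756275-4756524 on the plus strand for Rbm4b, chr19:4794010-4794259 on the minus strand for Rbm4, chr2:36136705-36136954 on the minus strand for Rbm18 and chr4:124714611-124714860 on the plus strand for Sf3a3.
Prpf38a: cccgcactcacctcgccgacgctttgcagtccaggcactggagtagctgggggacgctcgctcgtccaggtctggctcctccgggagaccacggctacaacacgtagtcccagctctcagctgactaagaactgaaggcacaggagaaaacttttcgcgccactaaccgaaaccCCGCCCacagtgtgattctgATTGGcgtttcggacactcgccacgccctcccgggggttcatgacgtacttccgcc
Snrpb2: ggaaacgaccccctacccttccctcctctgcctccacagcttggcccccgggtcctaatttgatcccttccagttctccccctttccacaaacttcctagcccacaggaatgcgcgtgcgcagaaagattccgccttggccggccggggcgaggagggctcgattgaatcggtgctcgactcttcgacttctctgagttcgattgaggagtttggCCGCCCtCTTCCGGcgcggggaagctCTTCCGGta
Hnrnpc: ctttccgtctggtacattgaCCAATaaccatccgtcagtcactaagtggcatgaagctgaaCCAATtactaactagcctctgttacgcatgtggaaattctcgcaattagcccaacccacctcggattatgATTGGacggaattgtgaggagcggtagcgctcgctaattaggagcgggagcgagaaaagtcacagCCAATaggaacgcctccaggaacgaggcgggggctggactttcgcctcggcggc
Rbm4b: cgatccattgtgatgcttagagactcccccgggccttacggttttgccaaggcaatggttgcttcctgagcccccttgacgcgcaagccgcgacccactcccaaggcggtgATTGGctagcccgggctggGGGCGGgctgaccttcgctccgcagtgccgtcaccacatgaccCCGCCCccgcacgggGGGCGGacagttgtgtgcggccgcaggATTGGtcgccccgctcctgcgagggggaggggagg
Rbm4: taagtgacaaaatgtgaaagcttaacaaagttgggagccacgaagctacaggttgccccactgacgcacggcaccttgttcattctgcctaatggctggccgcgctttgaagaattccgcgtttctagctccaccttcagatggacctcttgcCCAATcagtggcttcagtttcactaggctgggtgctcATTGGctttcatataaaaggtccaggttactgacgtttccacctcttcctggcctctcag
Rbm18: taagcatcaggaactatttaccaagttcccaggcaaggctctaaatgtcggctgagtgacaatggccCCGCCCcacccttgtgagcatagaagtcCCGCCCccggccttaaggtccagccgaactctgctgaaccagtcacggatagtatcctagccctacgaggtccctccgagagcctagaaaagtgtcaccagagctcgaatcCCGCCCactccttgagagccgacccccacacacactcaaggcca
Sf3a3: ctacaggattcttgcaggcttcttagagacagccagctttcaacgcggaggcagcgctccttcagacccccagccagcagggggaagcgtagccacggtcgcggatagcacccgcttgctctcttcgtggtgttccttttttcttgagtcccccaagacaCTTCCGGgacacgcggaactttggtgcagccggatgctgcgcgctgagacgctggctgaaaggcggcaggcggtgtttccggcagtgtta
Promoters were listed for 85 of the 101 genes, 78 of them among the 91 that passed the filter. Of these 78 upstream regions 44.9% held a CCAAT box, 55.1% a GC box and 23.1% the ETS motif. Over the 27025 genes with a listed promoter the shares were 34.5%, 32.9% and 7.05%. Over 1877 promoters of genes above the 99th percentile of the receptor genes they were 37.5%, 60.9% and 18.3%, nearer to those of the set. Median GC content was 60.4% for the 78 regions and 61.2% for those 1877. Among the regions printed, Hnrnpc had 4 CCAAT boxes and no GC box, and Rbm4b had 2 CCAAT boxes and 3 GC boxes. Its neighbour Rbm4 had 2 CCAAT boxes, no GC box and a GC content of 50.4% against 68.4% for Rbm4b. Rbm4 had 2 listed starts, and these values are for the first listed alone. A match is a run of letters and not a site shown to be bound.

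Proteins of the U1 and U2 particles and the Sm ring were measured through 9 Snrp genes, 3 of them ventral-high and none dorsal-high. Of all genes 9.44% were ventral-high and 4.88% dorsal-high. Over the 99th percentile of the receptor genes 2 of 8 Snrp genes were ventral-high, or 25%, against 30.1% of all genes. Snrpb2, which encodes the U2-B″ protein of the U2 particle, was 4.37-fold higher ventrally, at 7.29 in ventral against 5.16 in dorsal tissue. Its partner in the U2 particle, U2-A′, is encoded by Snrpa1, at 7.33 in ventral and 6.28 in dorsal tissue, 2.07-fold higher in ventral tissue, and under 2-fold after quantile normalization, at 0.75. The U1 proteins of the set differed less. Snrpa (U1-A) was at 5.91 in ventral and 5.79 in dorsal tissue, and Snrpc (U1-C) at 7.72 in ventral and 8.16 in dorsal tissue. Another U1 protein gene, Snrnp70, lies outside the set by its symbol. It was 2.93-fold higher in ventral tissue, at 9.85 in ventral against 8.30 in dorsal tissue. The 5 Sm ring genes measured went both ways. Snrpd3 was at 8.93 in ventral and 7.97 in dorsal tissue and Snrpe at 11.81 in ventral and 11.18 in dorsal tissue. Snrpd1 was higher in dorsal tissue, at 8.46 in ventral and 9.41 in dorsal tissue. Snrpb was at 6.38 in ventral and 6.73 in dorsal tissue. Snrpf, at 4.52 in ventral and 3.46 in dorsal tissue, was higher ventrally by at least 1.52-fold, its dorsal level being at background. From Snrpd1 at -0.95 to Snrpf at 1.06 the Sm ring spanned 2.01 on the log2 scale. Snrpd1 passed 2-fold after quantile normalization, at -1.20.

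Factors that define the branch point and the end of the intron went both ways within 1 complex. The 9 subunits of SF3a and SF3b, all above background on both arrays, ran from -1.89 for Sf3b4 to 1.67 for Sf3b3, a span of 3.56. Sf3b3, a large scaffold subunit of SF3b, was at 6.43 in ventral and 4.75 in dorsal tissue, 3.19-fold higher in ventral tissue. Sf3b6, the subunit called p14 that lies at the branch point, was 2.06-fold higher there, at 5.77 in ventral against 4.73 in dorsal tissue, and Sf3b2 lay at the 2-fold line, at 6.58 in ventral against 5.58 in dorsal tissue. Sf3b1, the HEAT-repeat subunit that clasps the branch point, was at 8.48 in ventral and 7.94 in dorsal tissue. Sf3b4, an RNA-binding subunit that contacts the intron upstream of the branch point, went the other way by 3.70-fold, at 6.21 in ventral and 8.09 in dorsal tissue. Sf3b5 differed little, at 7.19 in ventral and 7.39 in dorsal tissue. SF3a also had no common direction. Sf3a1 was at 5.06 in ventral and 4.54 in dorsal tissue and Sf3a2 at 5.77 in ventral and 4.88 in dorsal tissue. Sf3a3 was at 6.61 in ventral and 7.82 in dorsal tissue, 2.32-fold higher in dorsal tissue. U2af1, which reads the AG at the end of the intron, was 2.28-fold higher ventrally, at 7.08 in ventral against 5.89 in dorsal tissue. U2af2, which binds the pyrimidine tract beside it, was at 4.35 in ventral and 3.37 in dorsal tissue, where it was at background. The U2af1 paralog U2af1l4 was at background on both arrays, at 3.15 in ventral and 3.23 in dorsal tissue. After quantile normalization the differences of Sf3b6 and U2af1 were 0.78 and 0.90, under 2-fold.

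**Figure D4:**
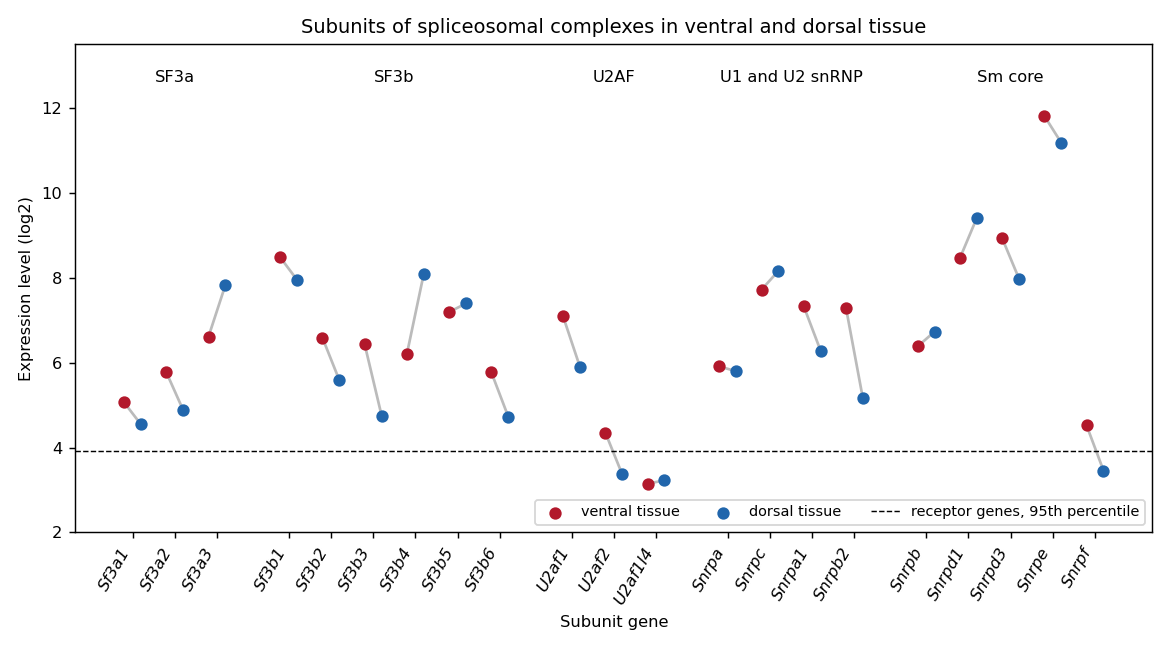
Log2 level (y axis) of subunit genes (x axis) of SF3a, SF3b, U2AF, the U1 and U2 particles and the Sm ring in ventral (left point) and dorsal (right point) tissue, 1 array each; the dashed line marks background, 3.92. Lines slope up to the right for Sf3b4, Sf3a3 and Snrpd1 and down for Sf3b3, U2af1 and Snrpb2.

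Of the 11 PRPF genes that passed the filter, 10 were higher in ventral tissue, 4 of them ventral-high, where 41.3% of all genes were higher there and 9.44% ventral-high. Over the 99th percentile of the receptor genes 3 of 5 PRPF genes were ventral-high, against 30.1% of all genes. There 5 of the 5 were higher in ventral tissue, against 61.6% of all genes. Prpf38a, which joins the spliceosome with the tri-snRNP before activation, was 5.23-fold higher ventrally, at 6.37 in ventral against 3.98 in dorsal tissue, with its dorsal level just above background. Its paralog Prpf38b was at 4.77 in ventral and 4.55 in dorsal tissue. Prpf39, whose yeast relative is a protein of the U1 particle, was higher ventrally by at least 3.48-fold, at 5.72 in ventral against 3.86 in dorsal tissue. Prpf4b, a kinase that acts on the assembling spliceosome, was 3.11-fold higher there, at 8.64 in ventral against 6.9998 in dorsal tissue. Of the 5 tri-snRNP genes, Prpf6, a bridge between the U5 and U4/U6 parts, was at 5.004 in ventral and 3.997 in dorsal tissue, 2.01-fold higher in ventral tissue, and under 2-fold after quantile normalization, at 0.89. Prpf3, which binds the U4/U6 pair, was at 5.65 in ventral and 4.73 in dorsal tissue. Prpf8, the U5 protein at the catalytic core, was at 6.82 in ventral and 6.48 in dorsal tissue. Prpf4, another U4/U6 protein, was at 3.93 in ventral and 3.38 in dorsal tissue, and Prpf31, which clamps the U4 RNA, at 4.21 in ventral and 4.33 in dorsal tissue, the single PRPF gene of the 11 that was lower in ventral tissue. Prpf19, the ubiquitin ligase that stabilises the activated spliceosome, was at 4.46 in ventral and 4.17 in dorsal tissue, and Prpf40b, a U1-associated protein, at 4.61 in ventral and 4.48 in dorsal tissue. Prpf18, which acts in the second step of splicing, did not pass the filter.

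Srsf genes had differences between -0.49 and 1.07 over 10 genes, 8 of them higher in ventral tissue, against 41.3% of all genes. With a loess on level removed 5 of the 10 were, against 49.6% of all genes. Srsf4 and Srsf9 were the 2 ventral-high genes, beside 9.44% of all genes. Over the 99th percentile of the receptor genes 1 of 8 Srsf genes was ventral-high, or 12.5%, against 30.1% of all genes. Srsf4 was at 5.36 in ventral and 4.28 in dorsal tissue, 2.11-fold, and Srsf9 at 7.11 in ventral and 6.06 in dorsal tissue, 2.07-fold. Both were under 2-fold after quantile normalization, Srsf4 at 0.91 and Srsf9 at 0.74. Srsf11, an SR-related protein also called p54, was at 7.78 in ventral and 6.83 in dorsal tissue. The well-studied exon activators Srsf1 and Srsf2 were near equal on the arrays. Srsf1 was at 8.25 in ventral and 7.84 in dorsal tissue, and Srsf2 at 8.40 in ventral and 8.15 in dorsal tissue. Srsf3, the smallest SR protein, was at 7.47 in ventral and 7.96 in dorsal tissue, the largest dorsal excess of the family. Srsf10, a splicing repressor once dephosphorylated, was at 5.89 in ventral and 5.49 in dorsal tissue. Srsf5 was at 7.36 in ventral and 7.17 in dorsal tissue and Srsf6 at 7.35 in ventral and 7.20 in dorsal tissue. Srsf12 was at background on both arrays.

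Of the 18 hnRNP genes that passed the filter, 14 were higher in ventral tissue, 4 of them ventral-high. Of all genes 41.3% were higher there and 9.44% ventral-high. With a loess on level removed 11 of the 18 were higher in ventral tissue, against 49.6% of all genes. Over the 99th percentile of the receptor genes 4 of 15 hnRNP genes were ventral-high, or 26.7%, against 30.1% of all genes. There 13 of the 15 were higher in ventral tissue, against 61.6% of all genes. Hnrnpc, which coats nascent transcripts and binds runs of U, was at 9.65 in ventral and 7.70 in dorsal tissue, 3.88-fold higher in ventral tissue. Hnrnpk, a KH-domain protein that binds runs of C, was 3.14-fold higher there, at 8.65 in ventral against 6.995 in dorsal tissue. Hnrnpul2, a relative of the scaffold-binding hnRNP U, was 2.48-fold higher at 7.31 in ventral against 6.00 in dorsal tissue, and Hnrnpa3 2.03-fold higher at 6.51 in ventral against 5.49 in dorsal tissue. Hnrnpa3 was under 2-fold after quantile normalization, at 0.72. Hnrnpu itself was just within 2-fold, at 10.50 in ventral and 9.57 in dorsal tissue, as were Hnrnpd, an AU-rich element binder, at 11.33 in ventral and 10.44 in dorsal tissue, and Hnrnpa2b1, a splicing repressor and RNA trafficking factor, at 10.04 in ventral and 9.16 in dorsal tissue. Centred on the median of all genes, the differences of Hnrnpu and Hnrnpd became 1.04 and 1.004. Several others differed little. Hnrnpab was at 10.91 in ventral and 10.87 in dorsal tissue, Hnrnpm at 11.06 in ventral and 10.81 in dorsal tissue, Hnrnph1 at 11.32 in ventral and 10.96 in dorsal tissue, and Hnrnph3 at 10.73 in ventral and 10.43 in dorsal tissue. Hnrnpdl was at 8.80 in ventral and 8.22 in dorsal tissue and Hnrnpl, a CA-repeat binder, at 8.95 in ventral and 8.71 in dorsal tissue.

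The remaining 4 hnRNP genes that passed the filter were higher in dorsal tissue, 1 of them dorsal-high, beside 4.88% of all genes. Hnrnpf, a binder of G runs, was at 3.80 in ventral and 4.85 in dorsal tissue, at least 1.90-fold higher in dorsal tissue. Its measured difference of -1.05 went under 2-fold when differences were centred, at -0.93. Hnrnpul1, the second relative of hnRNP U, was at 7.08 in ventral and 7.89 in dorsal tissue, opposite in direction to Hnrnpul2, and passed 2-fold after quantile normalization, at -1.09. Hnrnpll, known as a splicing regulator of lymphocytes, was at 6.84 in ventral and 7.08 in dorsal tissue, and Hnrnpa0 at 5.03 in ventral and 5.17 in dorsal tissue. Hnrnpr was at 4.10 in ventral and 3.58 in dorsal tissue, and Hnrnph2 did not pass the filter. Several hnRNP genes have processed pseudogenes or close paralogs whose transcripts the same probes may read, so values of single hnRNP genes are uncertain to that extent.

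Rbm4 differed more than any other gene of the set. It encodes an RNA-binding protein known for regulating alternative splicing in muscle and nerve cells, and was at 4.54 in ventral and 8.26 in dorsal tissue, 13.2-fold higher in dorsal tissue. Rbm4b, its paralog and a neighbour of the set on the chromosome, was at 5.73 in ventral and 4.22 in dorsal tissue, 2.85-fold higher in ventral tissue. Rbm14, the neighbour on the other side of Rbm4, encodes a paraspeckle protein and was level, at 4.04 in ventral and 4.15 in dorsal tissue. The 2 paralogs are close in sequence, so their probes may share signal, and both values are uncertain for that reason. Rbm4 kept a difference of at least 2-fold under every alternative scaling and floor tried. Other neighbours of the set within 100 kb were both higher in ventral tissue for Rbm5 and Rbm6, for Hnrnpd and Hnrnpdl and for Rbm12 and Rbm39. They had opposite signs for Rbm12b2 and Rbm12b1, at -0.44 and 0.98, and for Rbm3 and Rbm3os, at -0.52 and 1.14, and were near 0 for Rbm46 and Rbm46os, at -0.08 and -0.19, and for U2af1l4 and Rbm42, at -0.08 and -0.0055. In these pairs of opposite sign or near 0, only Rbm12b2 and Rbm42 were above background. The signs of the others are limited by signal.

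RBM proteins linked to the spliceosome gave 2 of the 4 ventral-high Rbm genes. The 4 include the noncoding Rbm3os, which lay at background on both arrays. Of the 31 Rbm genes that passed the filter 12.9% were ventral-high and 6.45% dorsal-high, beside 9.44% and 4.88% of all genes. Over the 99th percentile of the receptor genes the shares were 18.8% and 12.5% for Rbm genes and 30.1% and 12.7% for all genes. Rbm5, a tumour suppressor that regulates exon choice in apoptosis genes, was 3.35-fold higher at 8.56 in ventral against 6.81 in dorsal tissue. Rbm39, a U2AF-like protein that is the target of sulfonamide degraders, was 3.11-fold higher at 7.79 in ventral against 6.15 in dorsal tissue. Rbm6 and Rbm10, relatives of Rbm5, did not share a direction. Rbm6 was at 5.52 in ventral and 4.80 in dorsal tissue, and Rbm10 at 4.29 in ventral and 4.73 in dorsal tissue. Rbm17, a 3′ splice site factor also called SPF45, was at 8.48 in ventral and 8.39 in dorsal tissue, and Rbm25, a partner of the U1 particle, at 9.24 in ventral and 8.91 in dorsal tissue. Rbm8a, the Y14 subunit of the exon junction complex, was at 6.08 in ventral and 5.84 in dorsal tissue. Rbm42 was level, at 6.29 on both arrays, and Rbm48, a protein of the minor spliceosome, was at 5.17 in ventral and 4.36 in dorsal tissue. Rbm22, which helps form the catalytic core, was lower in ventral tissue, at 4.63 in ventral against 5.50 in dorsal tissue, and passed 2-fold after quantile normalization, at -1.08.

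The 6 RBM genes of RNA modification and decay were all higher in ventral tissue and all within 2-fold, between 0.40 and 0.92. Of all genes that passed the filter 41.3% were higher there. Over the 99th percentile of the receptor genes, where 2 of the 6 lay, 61.6% of all genes were. Rbm26, a zinc-finger protein that targets transcripts to the nuclear exosome, was at 9.26 in ventral and 8.34 in dorsal tissue, and its paralog Rbm27 at 6.89 in ventral and 6.49 in dorsal tissue. Rbm7, of another exosome-targeting complex, was at 5.08 in ventral and 4.50 in dorsal tissue. Rbm15 recruits the enzyme that methylates adenosine in mRNA and is needed in blood formation in mice. It was at 5.28 in ventral and 4.76 in dorsal tissue, and its paralog Rbm15b was near background, at 3.92 in ventral and 3.49 in dorsal tissue. Rbm33, which in human cells is a partner of an RNA demethylase, was at 5.46 in ventral and 5.06 in dorsal tissue.

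Tissue-restricted RBM genes were mostly at background. Of 7 such genes 6 were at background on both arrays: Rbm11, Rbm20, Rbm24, Rbm44, Rbm46 and Rbm47. Rbm20, the regulator of titin splicing in heart muscle, was at 3.32 in ventral and 3.48 in dorsal tissue, and Rbm24, a splicing factor of heart and skeletal muscle, at 3.12 in ventral and 3.35 in dorsal tissue. Rbm47, an epithelial splicing and editing cofactor, was at 2.83 in ventral and 2.61 in dorsal tissue. The exception was Rbm38, a p53 target that acts in splicing late in red cell formation, at 6.90 in ventral and 6.27 in dorsal tissue. In the other 6 no difference was detectable at this signal. Among nucleolar RBM genes Rbm28 was level, at 5.20 in ventral and 5.26 in dorsal tissue, while Rbm19 and Rbm34 were at background. Rbm18, a little-studied protein with an RNA-recognition motif, was 3.38-fold higher in dorsal tissue, at 4.09 in ventral and 5.84 in dorsal tissue. Rbm12 was at 6.04 in ventral and 5.54 in dorsal tissue. Rbm12b2 was at 5.48 in ventral and 5.92 in dorsal tissue. Rbm3, the cold-shock protein, was at background on both arrays, at 2.79 in ventral and 3.32 in dorsal tissue, as were Rbm12b1, Rbm41, Rbm43 and Rbm45. Rbm3os, counted among the 20 ventral-high genes, lay under the 95th percentile of the receptor genes on both arrays, at 3.91 in ventral and 2.77 in dorsal tissue, so no fold is given for it.

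Splicing genes outside the set were listed to complete the pathway. Of 116 listed genes 108 were measured and 105 passed the filter, and of these 25 were ventral-high and 3 dorsal-high, with a median difference of 0.32. The shares of all genes were 9.44% and 4.88%. At the higher signal, over the 99th percentile of the receptor genes, the counts were 23 and 2 of 63, or 36.5% and 3.17%, against 30.1% and 12.7% of all genes. The 4 with the greatest ventral excess were Cwc15, Khdrbs3, Clk1 and Matr3. Cwc15, a Prp19-complex partner, was higher ventrally by at least 21.3-fold, at 8.33 in ventral against 3.39 in dorsal tissue. Khdrbs3, a STAR-family splicing regulator, was 9.41-fold higher at 7.76 in ventral against 4.53 in dorsal tissue. Clk1, a kinase that phosphorylates SR proteins, was 7.09-fold higher at 9.18 in ventral against 6.35 in dorsal tissue, and Matr3, a nuclear matrix repressor of exons, 4.77-fold at 8.89 in ventral against 6.63 in dorsal tissue. In the opposite direction Cwc22, which deposits the exon junction complex, was at 6.15 in ventral and 7.94 in dorsal tissue, 3.45-fold higher in dorsal tissue. Crnkl1, another catalytic-step factor, was 2.79-fold higher in dorsal tissue, at 3.95 in ventral and 5.43 in dorsal tissue, and Elavl1, a stabiliser of AU-rich transcripts, 2.41-fold at 6.67 in ventral and 7.94 in dorsal tissue. The paraspeckle protein gene Nono was within 2-fold, at 10.27 in ventral and 11.11 in dorsal tissue.

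By role, counts are given beside 9.44% ventral-high and 4.88% dorsal-high among all genes that passed the filter. Counts at the higher signal stand beside 30.1% and 12.7%. The SR-related proteins and SR kinases had 5 ventral-high genes of 14, and 5 of 10 at the higher signal, and no dorsal-high one. The other snRNP proteins had 6 ventral-high genes of 24, and 5 of 14 at the higher signal, and none dorsal-high. Regulators of alternative splicing had 6 ventral-high and 1 dorsal-high gene of 33, and 6 and 1 of 22 at the higher signal. Prp19-complex and catalytic-step factors had 5 and 2 of 21, and 4 and 1 of 8 at the higher signal. The exon junction complex had 2 ventral-high genes of 5, and 2 of 4 at the higher signal. Early 3′ splice site factors had 1 of 8, and 1 of 5 at the higher signal. Neither list had a dorsal-high gene. Tra2b, an SR-like exon activator, was 2.46-fold higher ventrally, at 8.68 in ventral against 7.38 in dorsal tissue. Sfpq, a partner of Nono, was at 9.90 in ventral and 9.37 in dorsal tissue. Ptbp1, the pyrimidine-tract repressor that holds back neuronal exons, was at 8.11 in ventral and 8.75 in dorsal tissue.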

How the data were processed

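Expression was measured on 1 ventral and 1 dorsal array from embryonic day 10.5. Per the labels' protocols, 200 to 1000 pg of total RNA was amplified by a single-primer isothermal method, which can lose or over-represent transcripts at such amounts. The authors deposited normalized log2 values for each gene on each array, made with Affymetrix Expression Console and RMA per the submitters' processing notes. Versions, genome build and probe annotation: not given in the sources used here.

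Of 25429 features, 24675 had 1 symbol, all found by gene number in a table of GRCm38.p6. Genes were described by their ventral minus dorsal log2 difference, without a test because each tissue had 1 array. A gene passed the filter if its higher array reached 3.10. Folds with the lower array under 3.92 were computed against that level. Precision is limited by there being 2 arrays.

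Members, lists and roles were chosen with earlier results of these data known. Genes named by rule were the 14 members with the greatest difference in each direction among those above 3.92 on at least 1 array, the 8 with the highest mean level, the SF3, U2AF and Sm genes, and a fixed list. The other listed splicing genes followed the same rule, with 4 in each direction. Of the fixed names, Hnrnpa1, Snrpd2 and Snrpg, among others, were not analysed here. Further members were named after their values were seen, to account for the whole set. Alternatives covered scaling, level floors, fold thresholds and member choice. The counting steps were tested on simulated differences. Python 3.11.15, numpy 2.4.6, pandas 2.3.3, statsmodels 0.14.6 and matplotlib 3.10.9 were used.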

Additional observations from a re-analysis of the deposited data

How the results depend on the processing

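The median difference of the set was 0.41 and stayed positive under every alternative run. It was 0.26 after quantile normalization, 0.53 when differences were centred on the median of all genes and 0.55 with a loess on gene span removed, a choice made after seeing the data. The count of ventral-high genes was 35 at 1.5-fold and 9 at 3-fold. The count of dorsal-high genes was 8 after quantile normalization, beside 5.79% of all genes, 8 at 1.5-fold and 3 at 3-fold. The causes of shifts between scalings were not tested. Centring gave 29 ventral-high and 4 dorsal-high genes, beside 10.9% and 3.77% of all genes. Leaving out the 2 opposite-strand RNAs, also chosen later, gave 19 and 5, beside 9.44% and 4.88%. The other splicing genes at least 2-fold apart numbered 28, and 49 at 1.5-fold and 10 at 3-fold. Of all genes 9.44% were ventral-high and 4.88% dorsal-high, 16.3% and 15.0% at 1.5-fold, and 4.48% and 1.63% at 3-fold. Of the 57 members named by rule, 20 were at least 2-fold apart, 32 at 1.5-fold and 12 at 3-fold. The rule takes members with the greatest differences, so these counts are in large part set by it. Of all 25 members at least 2-fold apart, 17 kept their direction and stayed at least 2-fold apart under each scaling and floor that retained them. Hnrnpa3, Hnrnpf, Prpf6, Sf3b6, Snrpa1, Srsf4, Srsf9 and U2af1 went under 2-fold in at least 1 of them, and none of the 25 changed direction. No member had a predicted or Riken symbol, so the alternative that left these out changed nothing. No paired analysis was possible because each tissue had 1 array. Genes near background, and any difference in genes under 3.92 on both arrays, are limited by signal.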
